A study of Mus musculus with 18 samples.

Results

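The mevalonate arm is the part of cholesterol synthesis that turns acetyl-CoA into farnesyl and geranylgeranyl diphosphate. Of the 52636 genes in the count table, 8 of this arm were chosen by name: *Acat2*, *Hmgcs1*, *Mvk*, *Pmvk*, *Mvd*, *Idi1*, *Fdps* and *Ggps1*. Each symbol occurred once, and all 8 genes passed the filter on low counts in each comparison. RNA-seq was performed on the RPE of C57BL/6 mice at postnatal day (P) 14, with 6 groups of 3 mice and both eyes of 1 mouse in each library. One group was uninjected. The other 5 received, at birth and under the retina, an AAV8 vector whose *Best1* promoter is used to drive expression in the RPE: a vector for GFP, for nSREBP2 (the nuclear, active N terminus of SREBP2), for a hairpin against LacZ (ctrl sh), or for either of 2 hairpins against *Lrp2* (sh1 and sh2). The labels name no engineered allele for any group. GFP is the control of nSREBP2, and ctrl sh is the control of both hairpins, so that the 2 hairpin comparisons share their control libraries. The cells were freed with papain from eyecups without retina, which can leave cells of choroid and sclera in the sample.

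In the pathway, ACAT2 condenses acetyl-CoA to acetoacetyl-CoA and HMGCS1 adds a further one to give HMG-CoA, which is reduced to mevalonate. MVK and PMVK phosphorylate mevalonate and MVD decarboxylates the product to isopentenyl diphosphate, the C5 unit of all isoprenoids. IDI1 isomerizes this unit, FDPS builds farnesyl diphosphate from it and GGPS1 extends that to geranylgeranyl diphosphate. Farnesyl diphosphate is the branch point: it enters the sterol arm through squalene, or supplies dolichol, ubiquinone and the lipid anchors of proteins. SREBP2 is the transcription factor that activates genes of cholesterol synthesis when sterols in the endoplasmic reticulum are low, and its nuclear form acts without that control. In the RPE, geranylgeranylated Rab proteins serve vesicle traffic.

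The libraries held 8921885 to 13696934 counts, with the uninjected libraries the shallowest, and levels are given in CPM, which are counts relative to library size after TMM scaling of the 18 libraries. *Srebf2*, the gene of SREBP2, had 207 to 236 CPM in the nSREBP2 libraries and 82.9 to 122 CPM in the other 15. Since the vector carries mouse *Srebp2* sequence, reads of the transgene and of the endogenous gene cannot be told apart, and *Srebf2* only checks the labels. *Lrp2* had 29.7 to 43.9 CPM with the 2 hairpins, 25.3 to 38.1 CPM with nSREBP2 and 55.3 to 175 CPM in the other 9 libraries. Of the RPE markers, the melanosome genes *Tyrp1* and *Pmel* had at least 1546 CPM in each library. These 2 genes alone do not show how much RPE was kept. *Rpe65*, the isomerase of the visual cycle, had 371 to 1115 CPM without injection but 1.06 to 97.8 CPM in the 15 injected libraries, so this defining marker was near absent from most of them. Other RPE markers were also low with GFP, with means of 19.2 against 1494 CPM uninjected for *Rgr*, and 25.4 against 620 for *Lrat*. Of 13 RPE markers, 8 were lower and 0 higher with GFP than without injection (324 of all 17837 genes were lower, edgeR). With ctrl sh 0 of 13 passed the test (6.49% of all genes did). Reads of Y-linked genes numbered 2770 or more in the 3 nSREBP2 libraries, in uninjected replicate 3 and in *Lrp2* sh2 replicates 2 and 3, and at most 10 in the other 12, the GFP libraries included. Each library is 1 animal, so *P*-values measure the spread between animals.

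The promoters of these genes are shown first because SREBP2 is a transcription factor. The paper also reports SREBP2 at an intron of the human *BMP2* gene, and sequence outside the promoter windows was not searched here. RefSeq (GRCm38.p6) gave an entry for 7 of the 8 genes, with 2 starts for *Pmvk*, and *Fdps* was not matched. The stretches below end at the base before the RefSeq start and read 5′ to 3′ on the strand of the gene. Those of *Hmgcs1* (chr13:119690101-119690350, plus strand) and *Acat2* (chr17:12960726-12960975, minus strand) are given because they held letters of a sterol regulatory element (SRE). *Mvd* (chr8:122443423-122443672, minus strand) and *Idi1* (chr13:8885356-8885605, plus strand) are given for their large differences with nSREBP2, and *Ggps1* (chr13:14063489-14063738, minus strand) for the lack of a rise. *Mvk* (chr5:114444061-114444268, plus strand) is given as the 208 bases between its start and the facing start of *Mmab*. Capitals mark matches, on either strand, to the motifs named after the sequences, some of which have further matches outside the printed bases.
Hmgcs1: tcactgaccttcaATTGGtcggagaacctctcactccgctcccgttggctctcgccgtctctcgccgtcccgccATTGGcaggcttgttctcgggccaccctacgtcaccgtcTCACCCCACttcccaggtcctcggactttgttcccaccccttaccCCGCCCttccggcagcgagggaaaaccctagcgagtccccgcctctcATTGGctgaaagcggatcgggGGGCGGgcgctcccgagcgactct
Acat2: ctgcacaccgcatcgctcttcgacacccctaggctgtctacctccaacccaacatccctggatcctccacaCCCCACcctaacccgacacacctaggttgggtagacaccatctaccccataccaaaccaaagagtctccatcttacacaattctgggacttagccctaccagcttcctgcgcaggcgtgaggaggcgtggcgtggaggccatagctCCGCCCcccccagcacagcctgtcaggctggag
Mvk: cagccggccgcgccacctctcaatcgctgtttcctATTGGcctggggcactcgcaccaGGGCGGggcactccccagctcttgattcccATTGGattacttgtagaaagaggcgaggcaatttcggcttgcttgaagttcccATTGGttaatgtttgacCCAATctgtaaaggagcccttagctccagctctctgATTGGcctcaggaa
Mvd: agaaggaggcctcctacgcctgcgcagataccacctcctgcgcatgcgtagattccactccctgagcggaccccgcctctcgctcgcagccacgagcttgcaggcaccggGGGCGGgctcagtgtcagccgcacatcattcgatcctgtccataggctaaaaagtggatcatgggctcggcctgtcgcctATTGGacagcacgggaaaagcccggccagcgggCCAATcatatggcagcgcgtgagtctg
Idi1: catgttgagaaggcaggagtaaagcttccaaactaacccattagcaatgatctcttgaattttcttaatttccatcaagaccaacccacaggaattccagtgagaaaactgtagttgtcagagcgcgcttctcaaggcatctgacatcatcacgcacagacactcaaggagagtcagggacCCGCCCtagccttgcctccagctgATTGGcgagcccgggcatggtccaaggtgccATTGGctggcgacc
Ggps1: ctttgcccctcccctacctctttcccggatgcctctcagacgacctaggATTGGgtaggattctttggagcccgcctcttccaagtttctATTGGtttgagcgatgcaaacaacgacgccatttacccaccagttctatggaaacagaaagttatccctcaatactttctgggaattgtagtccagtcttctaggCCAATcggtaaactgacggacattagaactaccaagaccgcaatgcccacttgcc

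Motifs were searched on both strands of the window from 250 bases before to 50 bases after the start. The SRE-type motif TCACNCCAC occurred in *Hmgcs1* alone among the 7 genes, at 137 bases before the start and as TCACCCCAC, and was found in 1.24% of the 32851 mouse promoters of the same length. The shorter GTGGGG, plotted as the SRE core, which overlaps that match in *Hmgcs1*, also occurred in *Acat2* at 179 bases before the start, and 28.7% of all promoters held it. The motifs TGGTGTGAC (0.292% of all promoters) and CACGTG (7.15%) were found in none of the 7 genes. CCAAT, the box bound by NF-Y, was found 5 times in *Mvk*, 4 times in *Hmgcs1*, 3 times in *Ggps1*, 2 times each in *Mvd* and *Idi1* and once at the first start of *Pmvk*, against 37.4% of all promoters with at least 1 match. The GC box GGGCGG occurred in *Acat2*, *Hmgcs1*, *Mvk*, *Mvd* and *Idi1* (35.7% of all promoters). *Ggps1* held CCAAT boxes and none of the other motifs, as did the first start of *Pmvk*, whose second start held no motif at all. Only exact matches were counted, so a site that differs from a motif by a letter is missed, and a gene without a match can still hold an SRE. These matches describe letters in the window, and binding was not measured.

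**Figure D1:**
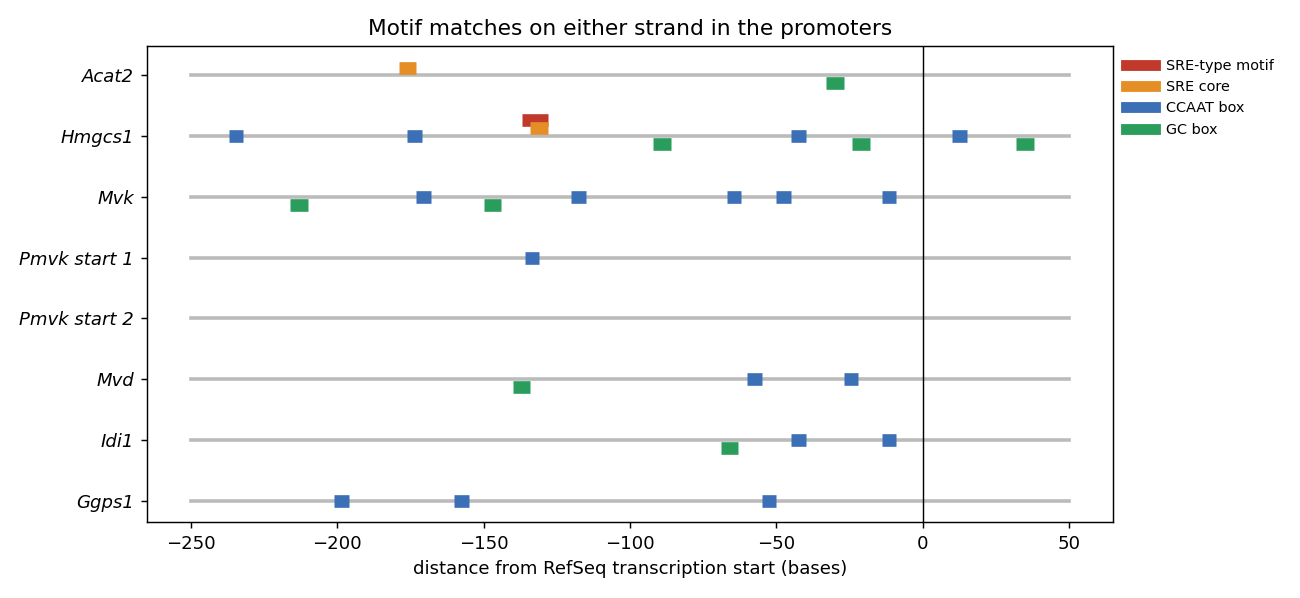
Motif matches in the promoter windows of 7 genes (*Pmvk* has 2 starts), plotted by distance from the RefSeq start in bases. *Hmgcs1* alone held an exact match to the SRE-type motif, at 137 bases before its start, while CCAAT boxes were found in each gene except *Acat2*.

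In all, 5 of the 8 genes share sequence or exons with other genes in GENCODE M21 (GRCm38), and whether the authors' counting used strand is not stated. *Mvk* (chr5:114444269-114460591, plus strand), *Pmvk* (chr3:89454541-89469013, plus strand) and *Mvd* (chr8:122433601-122443422, minus strand) shared none of their 100-base words with another gene. *Acat2* (chr17:12942890-12960747, minus strand) shared 28.9% of them with *Acat3* and *Tcp1*, and *Idi1* (chr13:8885501-8892451, plus strand) shared 21.9% with 3 gene models. *Hmgcs1* (chr13:119690379-119708260, plus strand) shared 8.22%, with the antisense model *Gm48342* and with *Rasgrp2*, and *Ggps1* (chr13:14050659-14063488, minus strand) shared 3.93% and overlapped 257 exon bases of *Arid4b* on the other strand. *Fdps* (chr3:89093588-89101959, minus strand) was the least certain: *Gm43738* on the same strand covered 1124 of its 4208 exon bases, and 21.4% of its words were shared with that gene and with *Gm3571* and *Gm5873*. It was counted with only 7 to 79 reads per library. Reads that match 2 genes can be missing from a gene's count, and how many are missing was not measured.

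The first comparison asks what nuclear SREBP2 does to the arm. With nSREBP2, 7 of the 8 genes rose against GFP, where 12.6% of the 17927 genes tested rose (adjusted *P* under 0.05, edgeR's quasi-likelihood test with Benjamini-Hochberg adjustment over all genes). The median log2 fold change (log2FC) of the 8 genes was 1.64, against −0.02 over all genes tested. Only *Ggps1*, which makes the substrate of Rab prenylation, did not pass the test. With a log2FC above 1 also required, 6 of the 8 were called higher (4.71% of all genes), since *Mvk* fell short of that limit. In the same 7 genes each nSREBP2 library was above each GFP library, as in 19.7% of genes tested. The libraries are of bulk tissue, so more cells of a type and more RNA per cell cannot be told apart.

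At the entry to the pathway, *Acat2* had 56.7, 40.1 and 40.9 CPM in the nSREBP2 libraries and 12.4, 13.3 and 12.4 CPM in the GFP libraries. The log2FC was 1.85 (SE 0.14, adjusted *P* = 2.06e-05, edgeR), or 3.6-fold. *Hmgcs1* had 142, 111 and 124 CPM with nSREBP2 and 58, 63.5 and 57.2 CPM with GFP, which gave a log2FC of 1.07 (SE 0.09, adjusted *P* = 4.46e-05, edgeR). In both genes the lowest nSREBP2 library lay above each of the other 15 libraries of the series.

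The 3 enzymes that act on mevalonate differed in the size of their rise. *Mvk* had 29.8, 23.9 and 23.8 CPM with nSREBP2 and 12.1, 15.7 and 14.6 CPM with GFP, the smallest rise of the 7 genes (log2FC 0.87, SE 0.13, adjusted *P* = 0.00134, edgeR). *Pmvk*, the next kinase, had 17.9, 14.6 and 18.8 CPM with nSREBP2 against 5.94, 6.3 and 6.6 CPM (log2FC 1.44, SE 0.14, adjusted *P* = 0.000105, edgeR). *Mvd* had 36.4, 25.7 and 28.3 CPM with nSREBP2 against 4.41, 6.92 and 6.23 CPM, a log2FC of 2.36 (SE 0.18, adjusted *P* = 2.61e-05, edgeR). *Mmab*, the cobalamin enzyme gene whose start faces that of *Mvk* at 209 bases, had 14.5, 12.5 and 12.9 CPM with nSREBP2 and 11.5, 11.5 and 11.6 CPM with GFP, and although these did not overlap, its log2FC of 0.20 (SE 0.11, adjusted *P* = 0.254, edgeR) did not pass the test. Whether *Mvk* and *Mmab* differed in their response was not tested.

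Of the genes that handle isopentenyl diphosphate, *Idi1* rose most, with 43.4, 23.7 and 31.3 CPM in the nSREBP2 libraries and 4.67, 4.79 and 7.13 CPM in the GFP libraries. Its log2FC was 2.55 (SE 0.24, adjusted *P* = 8.52e-05, edgeR), or 5.85-fold, and it had a wide spread among nSREBP2 mice, 32.8 ± 9.96 CPM (SD, n = 3). *Fdps* had 7.43, 5.75 and 4.48 CPM, from 79, 66 and 49 reads, against 1.27, 0.887 and 1.65 CPM, from 15, 10 and 22 reads. The log2FC was 2.18 (SE 0.30, adjusted *P* = 0.000803, edgeR), the least precise of the 8. The gene models that share sequence with *Fdps* had few reads in the same libraries, with 3 to 7 reads of *Gm3571* with nSREBP2 and 0 to 2 with GFP, and 0 to 5 and 1 to 2 reads of *Gm43738*.

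*Ggps1* had 48.2, 47.7 and 48.4 CPM with nSREBP2 and 50, 56.7 and 56.5 CPM with GFP. Each nSREBP2 library was below each GFP library, as in 17.8% of genes tested, yet the log2FC of −0.18 (SE 0.07, adjusted *P* = 0.110, edgeR) missed the threshold. The nSREBP2 libraries lay within the range of the uninjected ones (45 to 49 CPM), and against those the log2FC was 0.01. For *Arid4b*, whose first exon overlaps that of *Ggps1* on the opposite strand, the log2FC was −0.03 (SE 0.08, adjusted *P* = 0.826, edgeR).

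**Figure D2:**
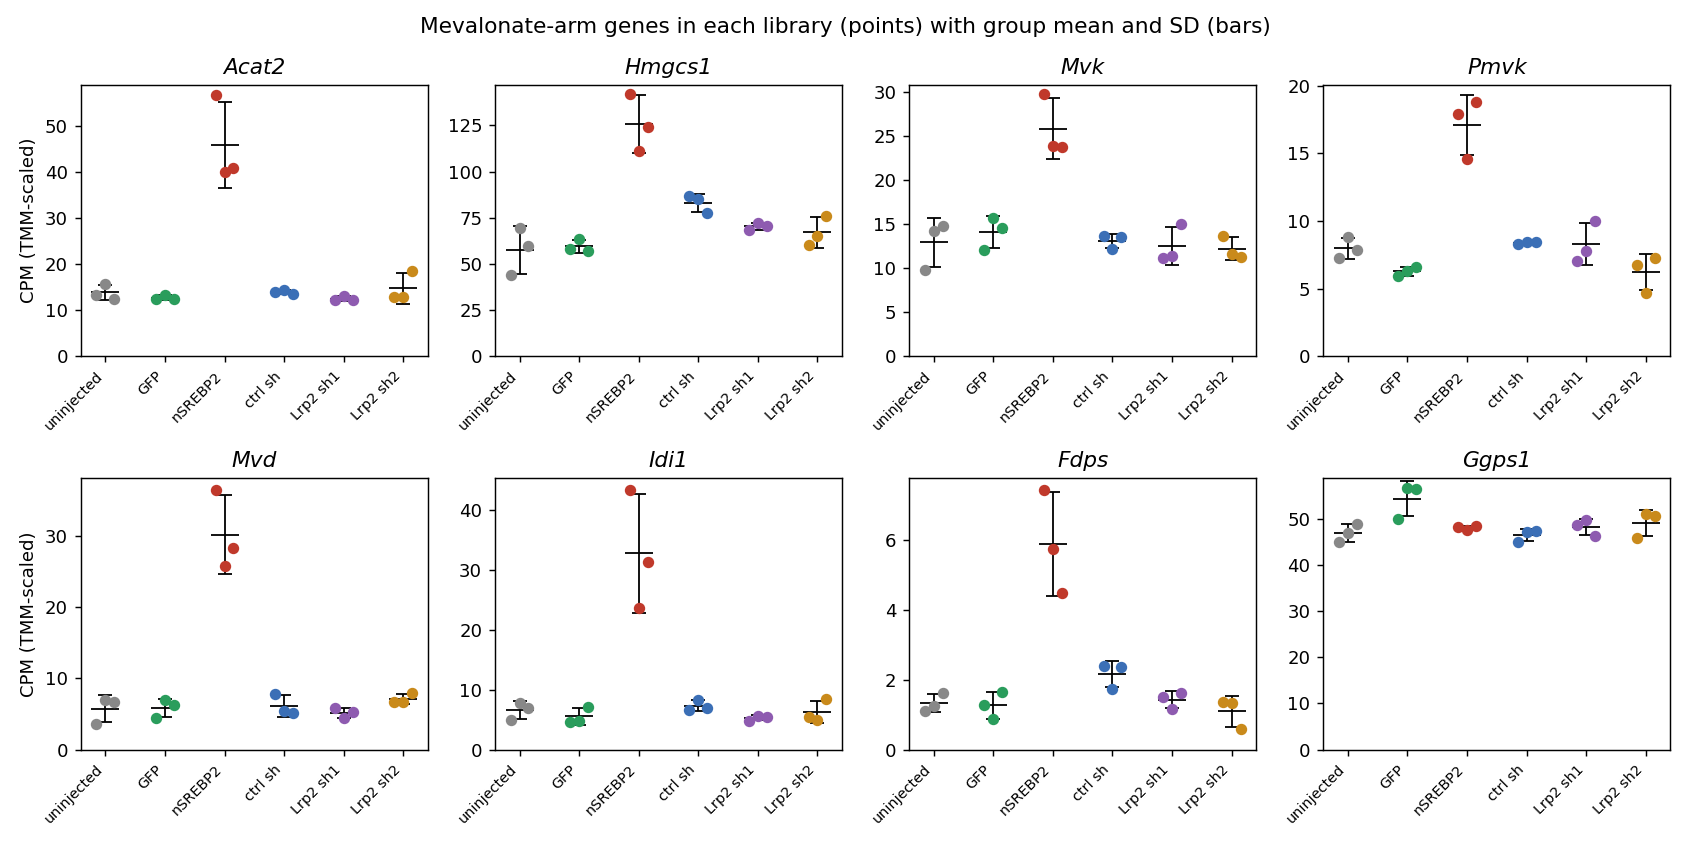
CPM of the 8 genes in each of the 18 libraries (points), with the mean and SD of each group of 3 (bars), on linear axes from 0. The 3 nSREBP2 libraries lie above all other libraries in each panel except that of *Ggps1*, where they have 47.7 to 48.4 CPM.

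Because the nSREBP2 libraries carried Y-linked reads and the GFP libraries did not, sex and vector cannot be told apart within this pair. The 3 other libraries with Y-linked reads had 12.5 to 18.6 CPM of *Acat2*, 59.8 to 76.2 CPM of *Hmgcs1*, 6.62 to 7.87 CPM of *Mvd* and 4.86 to 8.45 CPM of *Idi1*. For 7 of the 8 genes, each nSREBP2 library was above all 3 of these as well as above the 12 libraries without Y-linked reads. When sex was added to one model over the 18 libraries, the 7 genes stayed past the test with log2FC of 0.84 (*Mvk*) to 2.34 (*Idi1*), and *Ggps1* was called lower (log2FC −0.31, adjusted *P* = 0.0323, edgeR). In that model 1338 of all 19744 genes were called higher and 840 lower. Only the uninjected and *Lrp2* sh2 groups held libraries both with and without Y-linked reads, so the sex term rests on those groups.

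Markers of other cells also moved with nSREBP2. All 8 macrophage markers were higher than with GFP, and their summed level was 556 to 588 CPM against 289 to 329 CPM. All 6 fibroblast markers were higher (summed level 70876 to 86217 CPM with nSREBP2 and 34265 to 43622 CPM with GFP), and 6 of 8 endothelial markers were lower (1396 to 1474 against 1810 to 2324 CPM). Of 16 rod markers 3 were higher (727 to 882 against 434 to 830 CPM), and of 13 RPE markers 2 were higher and 3 lower (4799 to 6378 against 5412 to 5764 CPM). The rod markers called were *Crx*, *Pde6b* and *Pde6g* (log2FC 2.23, 1.39 and 1.19). Those of RPE were *Best1* and *Ttr* (1.75 and 0.84) and, lower, *Otx2*, *Lrat* and *Rdh5* (−1.69, −1.47 and −1.10). With GFP, *Gnb1* alone gave 389 to 479 CPM of the rod sum. *Tyrp1* and *Pmel* gave 2232 to 2455 and 2577 to 2772 CPM of the RPE sum, so neither sum shows the other markers. Of all 17927 genes tested, 2251 (12.6%) were higher and 1519 lower. The shares of rod and RPE markers called higher lay near that of all genes. No marker was at 0 throughout a group. The part of these cells in the rise of the 7 genes was not tested.

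Levels of different genes were compared per kb of exon. Without injection, *Hmgcs1* stood first at 12.5 ± 2.82 CPM per kb (SD, n = 3) and *Ggps1* next at 9.96 ± 0.431, and their ranges overlapped. *Acat2* (5.45 ± 0.668), *Mvk* (4.83 ± 1.02) and *Pmvk* (4.66 ± 0.453) followed with overlapping ranges, then *Mvd* (3.08 ± 1.03) and *Idi1* (1.88 ± 0.425), and *Fdps* was last at 0.316 ± 0.062 CPM per kb. With nSREBP2 the order changed. *Hmgcs1* remained first at 27.4 ± 3.33 CPM per kb, but *Acat2* (18 ± 3.69) and *Mvd* (16.2 ± 2.99) moved above *Ggps1* (10.2 ± 0.0753), and *Pmvk*, *Mvk* and *Idi1*, at 9.99, 9.65 and 9.36 CPM per kb, each overlapped the gene before it in the order. *Fdps* was last in all 6 groups, as counted, and reads missing from its count were not measured. The summed level of the 8 genes was 293 to 382 CPM with nSREBP2 and 129 to 184 CPM in the other 15 libraries.

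**Figure D3:**
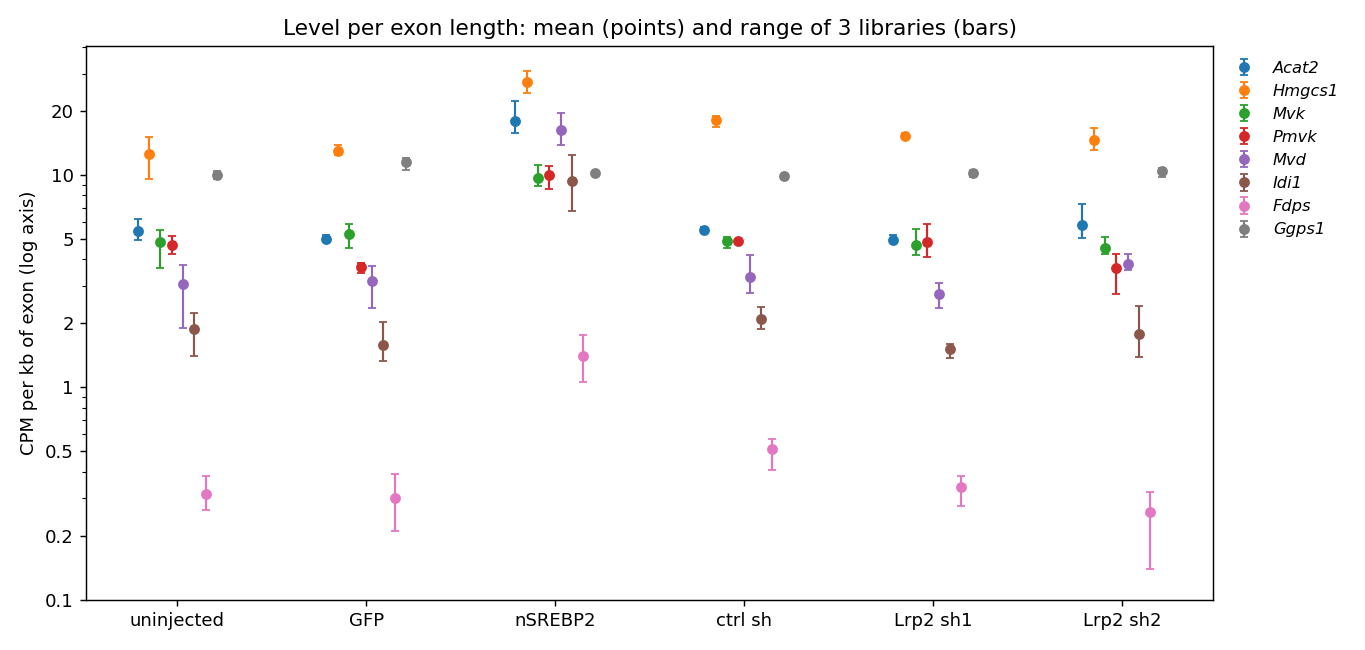
Mean level per kb of exon in each group (points) with the lowest and highest of 3 libraries (bars), on a log axis. With nSREBP2 the genes other than *Fdps* lie between 9.36 and 27.4 CPM per kb, whereas without injection they lie between 1.88 and 12.5.

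Outside the nSREBP2 group the levels of most genes of the arm lay close together. Mean levels of *Acat2* in the other 5 groups were 12.6 to 14.8 CPM, those of *Mvk* 12.2 to 14.1 CPM and those of *Mvd* 5.14 to 7.07 CPM, with SDs of 0.525 to 3.31, 0.801 to 2.73 and 0.696 to 1.91 (n = 3 each). *Pmvk* had 6.28 ± 0.331 CPM with GFP, 6.23 ± 1.36 with *Lrp2* sh2 and 7.98 to 8.38 CPM in the other 3 of these groups. The means of *Hmgcs1* ran from 57.6 ± 12.9 CPM without injection to 83.1 ± 4.84 CPM with ctrl sh. *Idi1* and *Fdps* also had their highest mean outside the nSREBP2 group with ctrl sh, 7.32 ± 0.92 and 2.16 ± 0.381 CPM, against 5.29 to 6.59 and 1.1 to 1.42 CPM in the other 4 groups. *Ggps1* stood at 46.6 to 49.2 CPM in all groups except GFP (54.4 ± 3.81 CPM).

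The next comparisons ask whether loss of *Lrp2*, a large endocytic receptor, changes the arm. With *Lrp2* sh1, 0 of the 8 genes passed the test against ctrl sh (5.33% of 17801 genes tested did so). The 8 genes had a median log2FC of −0.20 against −0.01 over all genes, and 3 of them had an unadjusted *P* under 0.05 in edgeR. DESeq2 also called 0. *Hmgcs1* came closest, with 68.3, 72 and 70.6 CPM against 86.6, 85 and 77.6 CPM in the ctrl sh libraries (log2FC −0.24, SE 0.06, adjusted *P* = 0.0519, edgeR). It passed the test when genes with under 10 counts in a library were left out (adjusted *P* = 0.0451, edgeR). *Idi1* had 4.82, 5.62 and 5.44 CPM with *Lrp2* sh1 and 6.6, 8.36 and 7 CPM with ctrl sh (log2FC −0.47, SE 0.16, adjusted *P* = 0.132, edgeR). In 4 genes, *Acat2*, *Hmgcs1*, *Idi1* and *Fdps*, levels were lower in each *Lrp2* sh1 library than in each ctrl sh library, as in 12.3% of all genes tested.

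With *Lrp2* sh2, again 0 of the 8 genes passed the test against ctrl sh (18.1% of 18089 genes tested), with a median log2FC of −0.15 against 0.01 over all genes and 3 genes at an unadjusted *P* under 0.05. *Hmgcs1* had 60.1, 65 and 76.2 CPM (log2FC −0.30, SE 0.09, adjusted *P* = 0.0516, edgeR). It was 1 of 3 genes, with *Pmvk* and *Fdps*, that were lower in each *Lrp2* sh2 library than in each ctrl sh library, as in 19.6% of genes tested. The call of *Hmgcs1* depended on the setting: it was lower with DESeq2, without a filter, with at least 10 counts in every library, and without *Lrp2* sh2 replicate 3, where the adjusted *P* was 0.0121 (edgeR; 0.0121 to 0.144 over the libraries left out in turn). *Fdps* had 1.36, 1.34 and 0.586 CPM with *Lrp2* sh2 and 2.39, 1.72 and 2.36 CPM with ctrl sh (log2FC −0.96, SE 0.34, adjusted *P* = 0.0872, edgeR), and in a fit of all 18 libraries it was called lower (adjusted *P* = 0.0441, edgeR). These values rest on 7 to 33 reads. *Pmvk* had 6.71, 4.7 and 7.28 CPM against 8.27, 8.43 and 8.43 CPM (log2FC −0.42, SE 0.18, adjusted *P* = 0.139, edgeR). With *Lrp2* sh2, 13 of 16 rod markers were higher and 6 of 13 RPE markers and 7 of 8 endothelial markers were lower than with ctrl sh. Of all 18089 genes tested, 1554 were higher and 1714 lower. The part of the marked cells in the differences of the arm was not tested.

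The ctrl sh libraries themselves stood high for *Hmgcs1* and *Fdps*. *Hmgcs1* had 77.6 to 86.6 CPM with ctrl sh and 43.8, 69.4 and 59.8 CPM without injection, and this log2FC of 0.50 (SE 0.14, adjusted *P* = 0.0699, edgeR) missed the threshold in the fit of the 6 libraries but passed it with DESeq2, without a filter, in both fits of all 18 libraries, and without uninjected replicate 2 (adjusted *P* = 0.0398, edgeR). *Fdps*, with a log2FC of 0.68 (SE 0.29, adjusted *P* = 0.188, edgeR), was the other gene whose ctrl sh libraries lay above all uninjected ones, as in 18.5% of genes tested. With the uninjected libraries in place of ctrl sh, *Hmgcs1* had a log2FC of 0.27 with *Lrp2* sh1 and 0.21 with *Lrp2* sh2, so that its sign depended on the control. In all, 0 of the 8 genes passed the test in ctrl sh versus uninjected (6.49% of 17822 genes tested; 2 of the 8 had an unadjusted *P* under 0.05, and DESeq2 called 1). In GFP versus uninjected it was also 0 of 8 (2.48% of 17837; 1 of the 8 had an unadjusted *P* under 0.05), with log2FC from −0.36 (*Pmvk*) to 0.19 (*Ggps1*). These were also the genes whose groups did not overlap, *Ggps1* higher with GFP (as in 14.4% of genes tested) and *Pmvk* lower (as in 11.4%). In the model with sex *Ggps1* was called higher with GFP (log2FC 0.24, adjusted *P* = 0.0351, edgeR), and DESeq2 called none of the 8 genes. The GFP libraries had 8 of 13 RPE markers lower than the uninjected ones, where 324 of all 17837 genes tested were lower.

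The hairpins were also compared with each other. Of the 8 genes, 0 differed between *Lrp2* sh2 and *Lrp2* sh1 (22.4% of 17975 genes tested did; 1 of the 8 had an unadjusted *P* under 0.05, and DESeq2 called 0). *Mvd* was the nearest, with 6.71, 6.62 and 7.87 CPM with *Lrp2* sh2 and 5.77, 4.38 and 5.27 CPM with *Lrp2* sh1 (log2FC 0.46, SE 0.17, adjusted *P* = 0.0807, edgeR), without overlap, as in 18.2% of genes tested. In the same comparison *Srebf1*, which codes for the SREBP1 forms that mainly drive fatty acid synthesis, was lower with *Lrp2* sh2 (log2FC −1.12, adjusted *P* = 3.21e-06, edgeR), and 13 of 16 rod and 7 of 8 macrophage markers were higher, while 8 of 8 endothelial and 7 of 13 RPE markers were lower. Of all 17975 genes tested, 1825 were higher and 2204 lower. The part of the cells with these markers was not tested.

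The effect of nSREBP2 was then set against the mean effect of the 2 hairpins in one fit of the 18 libraries. It was larger in 7 of the 8 genes (3.32% of 19744 genes tested), by 0.94 (*Mvk*) to 2.96 (*Fdps*) on the log2 scale, and the 8 genes had a median difference of 1.76 against −0.00 over all genes. *Ggps1* did not pass this test (difference −0.25, SE 0.09, adjusted *P* = 0.0983, edgeR).

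**Figure D4:**
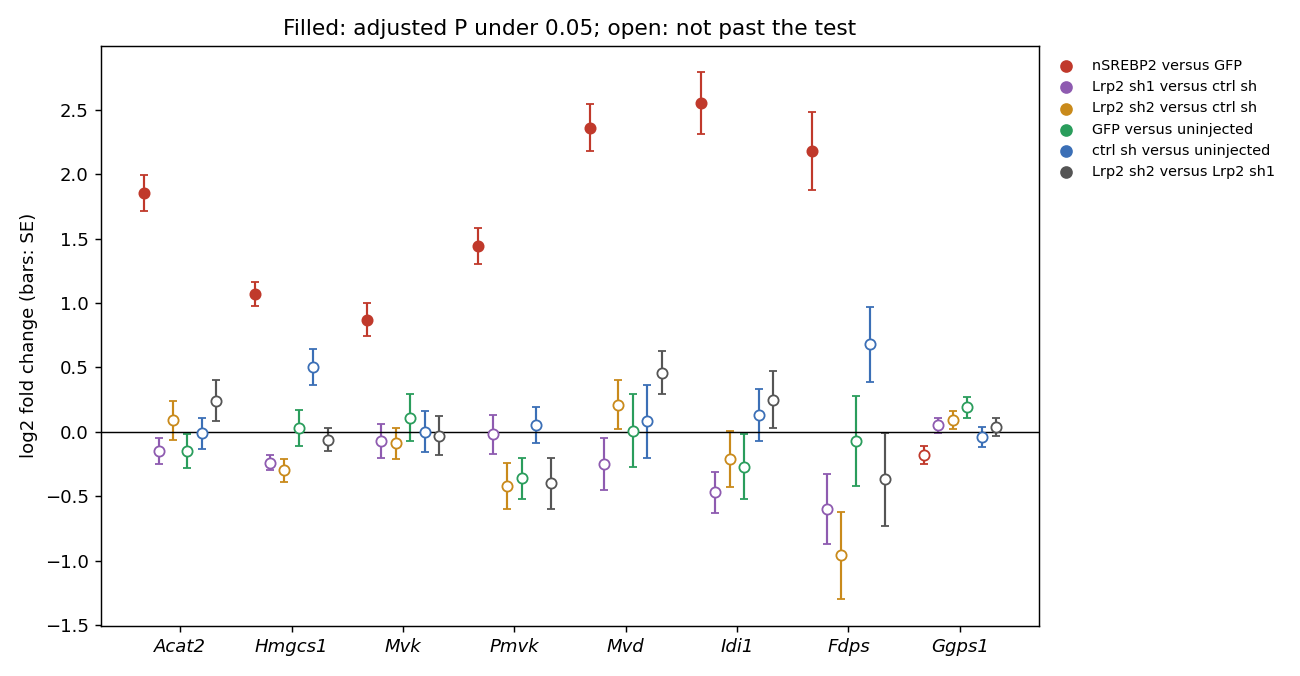
log2FC of the 8 genes in the 6 comparisons (points) with SE (bars), and filled points for an adjusted *P* under 0.05 (edgeR). The 7 filled points are all of nSREBP2 versus GFP, from 0.87 to 2.55, and the comparisons without nSREBP2 lie between −0.96 and 0.68.

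The response was then followed beyond the mevalonate arm, in gene lists of the neighboring steps. In nSREBP2 versus GFP, 11 of 12 genes of the sterol arm, which carries farnesyl diphosphate to cholesterol, were higher (12.6% of all 17927 genes tested were), with a median log2FC of 1.65. The genes of the sterol arm ranged up to *Tm7sf2* (log2FC 2.68, SE 0.17) and *Hsd17b7* (log2FC 2.67, SE 0.12), a sterol reductase and a ketosteroid reductase. The exception was *Lbr*, the lamin B receptor and a sterol reductase, whose log2FC was 0.22 (SE 0.09, adjusted *P* = 0.0982, edgeR). *Fdft1*, squalene synthase, which draws on the same farnesyl diphosphate as *Ggps1*, had 55.5 to 67.7 CPM with nSREBP2 and 15 to 18.4 CPM with GFP (log2FC 1.87, SE 0.11, adjusted *P* = 5.38e-06, edgeR).

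Genes that use farnesyl and geranylgeranyl diphosphate elsewhere were also measured. Of 17 genes for dolichol, ubiquinone and menaquinone synthesis and for protein prenylation and its processing, 0 passed the test in edgeR (0 had an unadjusted *P* under 0.05, and DESeq2 called 0), with log2FC from −0.21 to 0.15 and a median of −0.01. Of all 17927 genes tested, 3770 passed the test and 5970 had an unadjusted *P* under 0.05 (edgeR). *Dhdds*, a subunit of the enzyme that starts dolichol, had 37.1 to 40.9 CPM with nSREBP2 and 36.5 to 42.4 CPM with GFP. *Chm*, which codes for a Rab escort protein, gave a log2FC of −0.02 (SE 0.07, adjusted *P* = 0.850, edgeR).

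Upstream, the genes that supply cytosolic acetyl-CoA rose: *Acss2*, acetyl-CoA synthetase (log2FC 2.18, SE 0.15), *Acly*, ATP-citrate lyase (log2FC 1.55, SE 0.10), and *Slc25a1*, the citrate carrier (log2FC 0.78, SE 0.09, adjusted *P* = 0.000268, edgeR). Among paralogs of the arm and enzymes of ketone bodies, *Acat1*, the mitochondrial thiolase (log2FC −0.04, SE 0.07), and *Acat3* (log2FC −0.48, SE 0.39, from 7 to 22 reads) did not pass the test. *Bdh1*, which interconverts the ketone bodies, rose (log2FC 1.32, SE 0.22, adjusted *P* = 0.00230, edgeR). Its level with nSREBP2, 11.2 to 16 CPM, overlapped the 8.70 to 13.4 CPM of the 3 hairpin groups. *Idi2* was not tested because of low counts.

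Of 10 genes of fatty acid synthesis 8 rose with nSREBP2 (median log2FC 0.76), led by *Scd1* (log2FC 3.62, SE 0.14), and of 9 genes of SREBP control and sterol transport 3 rose: *Srebf2*, whose reads include the transgene, *Insig1*, which retains SREBP in the endoplasmic reticulum, and *Stard4*, a carrier of cholesterol. These counts stand beside 12.6% of all 17927 genes tested that rose. *Scap*, *Insig2* and the site proteases *Mbtps1* and *Mbtps2* did not pass the test (log2FC −0.07 to 0.05). Against ctrl sh, 2 of 12 genes of the sterol arm were lower with *Lrp2* sh1, *Sqle* (log2FC −0.46) and *Hsd17b7* (log2FC −0.54), where 405 of all 17801 genes tested were lower and 544 higher. With *Lrp2* sh2 1 of 12 was lower, *Lss* (log2FC −0.50, adjusted *P* = 0.0335, edgeR), where 1714 of all 18089 genes were lower and 1554 higher, a share near that of the list. Of the 9 genes of SREBP control and sterol transport, 5 were lower and 0 higher with *Lrp2* sh2, and 0 were lower and 1 higher with *Lrp2* sh1. That one was *Srebf1*, which went opposite ways with the hairpins (log2FC 0.52 with *Lrp2* sh1 and −0.59 with *Lrp2* sh2, adjusted *P* = 0.00184 and 0.000301, edgeR). Of 10 genes of fatty acid synthesis, 4 were lower and 1 higher with *Lrp2* sh2 (median log2FC −0.29), and 0 passed the test with *Lrp2* sh1 (median log2FC 0.18, with 6 at an unadjusted *P* under 0.05 in edgeR and 2 called by DESeq2).

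**Figure D5:**
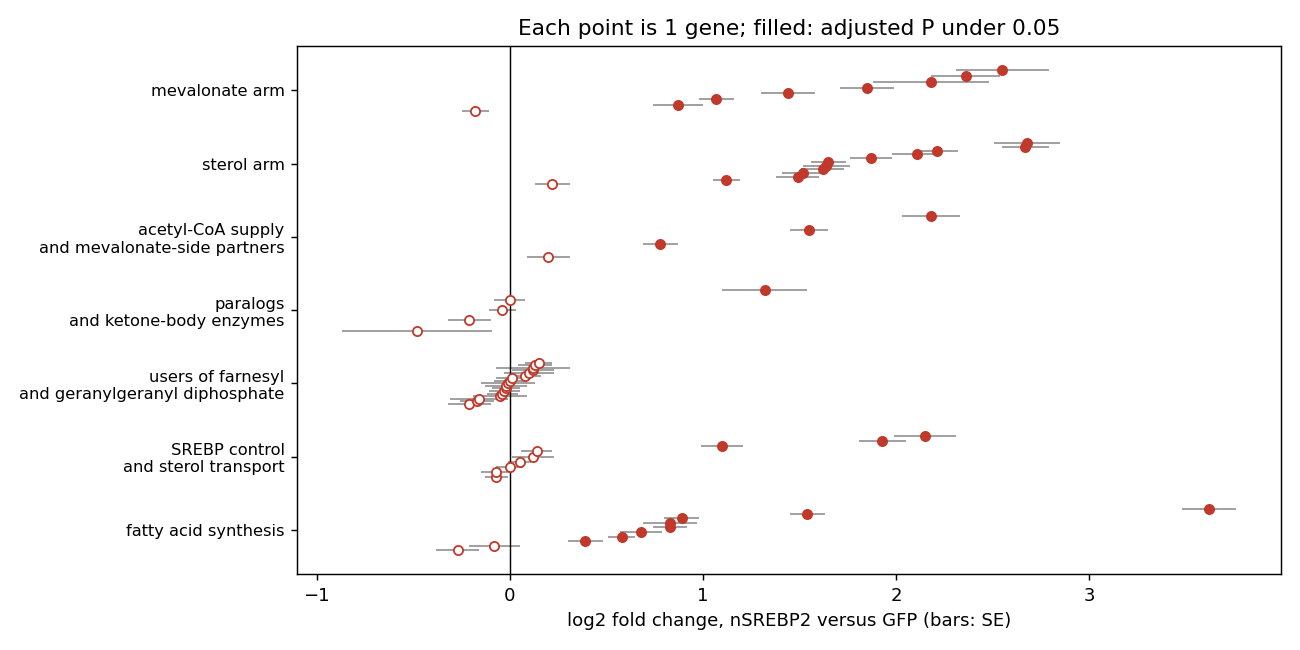
log2FC of each gene of 7 lists in nSREBP2 versus GFP (points) with SE (bars), and filled points for an adjusted *P* under 0.05 (edgeR). The sterol arm lies with the mevalonate arm (medians 1.65 and 1.64), while the 17 users of farnesyl and geranylgeranyl diphosphate lie between −0.21 and 0.15.

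Levels among mice of one group were compared next. nSREBP2 replicate 1 had the highest level of 6 of the 8 genes (all except *Pmvk* and *Ggps1*) and also the most *Srebf2* reads, transgene included, 236 CPM against 207 and 209. Uninjected replicate 1 had the lowest level of 7 of the 8, and the lowest *Rpe65* of its group, 371 CPM. *Lrp2* sh2 replicate 3 had the highest level of 5 of the 8 genes in its group, as did GFP replicate 2 and uninjected replicate 2 in theirs, while with ctrl sh and *Lrp2* sh1 no replicate was highest for more than 4. The share of all genes highest or lowest in these replicates was not measured, and the genes of a library share its scaling. A link of these counts to *Srebf2* or *Rpe65* was not tested. As a description over 18 libraries, log2 levels of each gene had a Pearson correlation with the mean of the other 7 of 0.88 (*Fdps*) to 0.97 (*Idi1*), apart from *Ggps1* with −0.14. Without the nSREBP2 libraries (15 libraries) these were 0.14 (*Fdps*) to 0.65 (*Hmgcs1*), and −0.19 for *Ggps1*. With the mean of each group removed they were 0.48 to 0.75 in 6 genes, but 0.01 for *Fdps* and 0.26 for *Ggps1*. The points share libraries and normalization.

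Among 11001 other genes with a mean log2 level of at least 3, 9 of the 10 most like the mean of the 8 were *Lss*, *Cyp51*, *Fasn*, *Nsdhl*, *Insig1*, *Scd1*, *Srebf2*, *Acly* and *Msmo1*, with correlations of 0.965 to 0.977 over 18 libraries. Without the nSREBP2 libraries the correlations ranged from 0.09 (*Acly*) and 0.14 (*Scd1*) to 0.68 (*Srebf2*) and 0.76 (*Msmo1*). After the mean of each group was removed they were 0.48 (*Scd1*) to 0.80 (*Msmo1*).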

How the data were processed

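RNA-seq of RPE from 18 mice was analysed, with groups and replicate numbers from the sample labels. Reads had been aligned by the authors with STAR 2.7.3a against GRCm38, which also gave the deposited count of each gene, in whole reads. The annotation and the use of strand are not given in the sources used here. Each pair of groups was fitted on its 6 libraries by quasi-likelihood in edgeR 4.0.16 (R 4.3.3), after filterByExpr and TMM scaling, with Benjamini-Hochberg adjustment over all genes tested. The study used DESeq2, which was run as an alternative (1.42.0). The SE is the absolute log2FC divided by the square root of F. With 8921885 to 13696934 counts per library, the limit set by a count of 0 is 3 counts, which is 0.218 to 0.323 CPM and covers counting error only. Replicates differed by more than sampling noise (chi-square per degree of freedom at least 3.57). The fits were tested on counts simulated from the nSREBP2 and GFP libraries. At 1.5-fold, edgeR recovered 40 and DESeq2 42 of 81 changed genes. At 2-fold they recovered 55 and 54 of 57, and at 4-fold 62 of 62 each. Smaller changes were not simulated. Changed genes were drawn only from those with an average log2 CPM above 2, and all genes were given a common dispersion. The recovery therefore does not extend to genes with fewer reads. The uninjected, ctrl sh and hairpin groups were not simulated, and chi-square per degree of freedom reached 24.3 between uninjected replicates. Positions and exon lengths are those of GENCODE M21, and promoters those of RefSeq. Likeness used log2(CPM + 0.5). The genes named were the 8 members, the listed pathway genes, 9 of the 10 most like genes and the overlapping genes, and others were named after their values were seen. The members and lists were chosen with earlier results of these data known. Results of 5 genes of the pathway lists are not reported here. The alternatives are in the closing section.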

Additional observations from a re-analysis of the deposited data

Results flagged for a closer look

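The effect of nSREBP2 (against GFP) differed from the mean effect of the 2 *Lrp2* hairpins (against ctrl sh) in 7 of the 8 genes, by a test of that difference in one fit of all 18 libraries (adjusted *P* under 0.05, edgeR; 3.32% of the 19744 genes tested passed it in this direction). The difference in log2FC was 1.88 (SE 0.19) for *Acat2*, 1.34 (SE 0.16) for *Hmgcs1*, 0.94 (SE 0.20) for *Mvk*, 1.65 (SE 0.21) for *Pmvk*, 2.38 (SE 0.30) for *Mvd*, 2.89 (SE 0.31) for *Idi1* and 2.96 (SE 0.40) for *Fdps*. The adjusted *P* (edgeR) ran from 1.41e-05 (*Acat2*) to 0.0102 (*Mvk*). For *Ggps1* the difference was −0.25 (SE 0.09, adjusted *P* = 0.0983, edgeR). Outside the nSREBP2 group, mean levels of *Hmgcs1*, *Idi1* and *Fdps* were highest with ctrl sh. The difference with another control of the hairpins was not tested. The nSREBP2 and GFP libraries also differ in Y-linked reads, and with sex as a term, where 599 of 19744 genes were called in this direction and 395 in the other, all 8 genes passed the test, with differences from 0.93 (*Mvk*) to 2.98 (*Fdps*) in the 7 genes and −0.34 in *Ggps1*. The sex term rests on the uninjected and *Lrp2* sh2 groups, which alone held libraries both with and without Y-linked reads.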

How the results depend on the processing

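With 3 libraries per group small changes can be missed, and *Fdps* rests on few reads. In nSREBP2 versus GFP, 7 genes were called in the main test and 6 to 8 under the alternatives: 6 with an absolute log2FC above 1 required, 8 with sex as a term, and 7 otherwise, also without any single library. The difference from the hairpin effect was called in 7 genes, in 6 with at least 10 counts in every library, where *Fdps* was not tested, and in 8 with sex as a term.

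Where 0 genes were called, some alternatives called 1. For *Lrp2* sh1 this was 1 with at least 10 counts in every library. For *Lrp2* sh2 it was 1 with DESeq2, with no filter, with at least 10 counts in every library and with all 18 libraries in one fit. For GFP versus uninjected it was 1 with sex as a term. For ctrl sh versus uninjected it was 1 with DESeq2, no filter, all 18 libraries, and sex as a term. Over fits that left out one library, the number ranged from 0 to 1 for *Lrp2* sh2 (1 without *Lrp2* sh2 replicate 3) and from 0 to 1 for ctrl sh versus uninjected (1 without uninjected replicate 2). It stayed at 0 for *Lrp2* sh1, GFP versus uninjected and sh2 versus sh1. The cause of these moves was not tested.

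Of 853 log2FC of single genes under an alternative, 43 changed sign, all of genes that had not passed the test. With the uninjected control these were *Ggps1* with nSREBP2 (0.01), *Hmgcs1* (0.27), *Pmvk* (0.04) and *Fdps* (0.09) with *Lrp2* sh1, and *Hmgcs1* (0.21) with *Lrp2* sh2. With sex as a term they were *Ggps1* with *Lrp2* sh2 (−0.00), *Ggps1* in sh2 versus sh1 (−0.06), and, in ctrl sh versus uninjected, *Acat2* (0.01), *Mvk* (0.01) and *Ggps1* (0.01). In that last comparison *Acat2* and *Mvk* also gave 0.01 and 0.02 with DESeq2 and 0.01 and 0.02 without a filter, and *Mvk* gave 0.00 with all 18 libraries. When libraries were left out in turn, ranges that crossed 0 were, for *Lrp2* sh1, *Mvk* (−0.21 to 0.01) and *Pmvk* (−0.18 to 0.09), and for *Lrp2* sh2, *Acat2* (−0.11 to 0.18). For GFP versus uninjected they were *Hmgcs1* (−0.13 to 0.18), *Mvk* (−0.06 to 0.22), *Mvd* (−0.24 to 0.18) and *Fdps* (−0.31 to 0.13). For ctrl sh versus uninjected they were *Acat2* (−0.07 to 0.08), *Mvk* (−0.16 to 0.11), *Pmvk* (−0.01 to 0.12), *Mvd* (−0.17 to 0.24), *Idi1* (−0.04 to 0.27) and *Ggps1* (−0.06 to 0.00). For sh2 versus sh1 they were *Hmgcs1* (−0.16 to 0.01), *Mvk* (−0.13 to 0.11), *Idi1* (−0.02 to 0.40) and *Ggps1* (−0.00 to 0.08).

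The replicate numbers were not taken to pair the mice. The correlation of same-numbered deviations was −0.44 to 0.39, and in no comparison was each above 0.1. With 3 libraries per group this cannot show that pairing was absent. With the replicate number as a block, 7 genes were called with nSREBP2, 7 in the difference from the hairpins and 0 in the other comparisons, and *Mvk* in ctrl sh versus uninjected moved to 0.01. The median log2FC of all genes was at most 0.047 in size under the settings tried, which was with DESeq2 in *Lrp2* sh2 versus ctrl sh. The scalings themselves bring this median near 0, so it is no check of them.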
